A study of Mus musculus with 27 samples.

Results

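Chrna4 encodes the alpha 4 subunit of the neuronal nicotinic acetylcholine receptor, a ligand-gated cation channel. It was chosen by its measured values, because its mRNA differed widely between the groups of a mouse liver regeneration series, and it is 1 of the 54532 genes of the deposited table and 1 of the 12376 genes that passed the filter on low values. The values that chose it are given here as a description, with no test. RNA sequencing of liver was done in 27 libraries of wild-type C57/BL6J mice. The groups were a sham operation (sham, n = 5, with no time given), 70% partial hepatectomy sampled 24 h after resection (PHx24, n = 7) or 48 h after it (PHx48, n = 7), and the same resection with etomoxir at 24 h (PHx24_ETO, n = 4) and 48 h (PHx48_ETO, n = 4). Etomoxir blocks carnitine palmitoyltransferase 1 and with it the entry of long-chain fatty acids into mitochondria. A dose of 12.5 mg/kg went into the peritoneum 4 h ahead of surgery, and the mice of the 48 h group had another dose 24 h after surgery. All groups share strain and genotype, and a vehicle for mice without etomoxir, sex and age are not stated. Whether every library came from its own mouse is not stated, so a p-value here reflects only how much the libraries of a group differed, which may be in part technical.

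Nicotinic receptors are pentamers opened by acetylcholine. The alpha 4 subunit pairs mostly with the beta 2 subunit, encoded by Chrnb2, and this receptor is best known from the brain, where it binds nicotine with high affinity. Acetylcholine is made by choline acetyltransferase (Chat) and broken down by acetylcholinesterase (Ache) and, in plasma, by butyrylcholinesterase (Bche), which the liver secretes. Acly, the gene whose mRNA followed Chrna4 most closely here, encodes ATP citrate lyase, which makes cytosolic acetyl-CoA for fatty acid and sterol synthesis.

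Chrna4 (ENSMUSG00000027577) lies on the minus strand of mouse chromosome 2 (GRCm38, chr2:181018380-181043546), with 5 transcripts in GENCODE M21. The transcript Chrna4-201 has 6 exons and starts at 181039305. Another, Chrna4-203, starts farther upstream, at 181043546. The gene-level table does not separate them. The stretch before the start of Chrna4-201 is shown with that of Acly because these mRNAs moved together. Both come from the RefSeq promoter table (GRCm38.p6), on the minus strand, at chr2:181039306-181039427 for Chrna4 and chr11:100528001-100528250 for Acly. Capitals mark the GC box, GGGCGG on either strand.
Chrna4: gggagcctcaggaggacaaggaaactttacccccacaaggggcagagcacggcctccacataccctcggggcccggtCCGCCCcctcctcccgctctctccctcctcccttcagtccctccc
Acly: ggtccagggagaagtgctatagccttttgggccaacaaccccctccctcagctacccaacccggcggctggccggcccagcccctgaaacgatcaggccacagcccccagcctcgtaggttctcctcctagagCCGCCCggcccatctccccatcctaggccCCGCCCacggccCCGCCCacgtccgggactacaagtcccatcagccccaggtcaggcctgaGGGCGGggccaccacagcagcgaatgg
In the 122 bases shown for Chrna4, 68.0% were G or C and the only GC box lay 45 bases before the start. The 250-base Chrna4 window of the RefSeq table, which reaches into the transcript, held 3 GC boxes, and the Acly window held 4. A GC box stood in 32.7% of the 32851 promoter windows of that length. Neither window held the sterol regulatory element TCACNCCAC (in 1.05% of windows), the E-box CACGTG (6.02%), the direct repeat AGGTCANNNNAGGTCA of the liver X receptor (0.0152%) or CCAAT (33.8%), each searched on both strands. These are letter matches within a short window, not measured binding.

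The 27 libraries held 14903757 to 18446372 counts. The hepatocyte markers in the table (9 of 10) were high in all libraries, with a summed level of 27200 to 71000 FPKM (fragments per kilobase of gene length, scaled to library size, a level per length). RNA of muscle or pancreas was highest in 4 libraries. Skeletal muscle markers summed to 4810 FPKM in sham 1, 1830 in PHx24 1 and 578 in PHx48 3, and exocrine pancreas markers to 963 FPKM in sham 2. PHx48_ETO 4 had 84.9 FPKM of muscle markers. Adipocyte markers summed to 230 FPKM in sham 1, 174 in PHx24_ETO 2 (21.1 to 30.9 in the other PHx24_ETO libraries) and 169 in PHx48 3. Results are given without the first 4 of these libraries where that changes them.

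Chrna4 mRNA was low in sham liver, lower 24 h after resection and high at 48 h, and it was low at both times under etomoxir. In sham the libraries 1 to 5 had 0.977, 1.87, 0.739, 1.14 and 1.23 FPKM, from 54 to 136 counts each. PHx24 ran from 0.131 to 0.495 FPKM with a median of 0.343, from 10 to 42 counts. The highest PHx24 library was below the lowest sham library, so these groups did not overlap. PHx24_ETO libraries 1 to 4 had 0.106, 0.134, 0.316 and 0.135 FPKM, from 9 to 26 counts. PHx24_ETO 1 lay below the PHx24 range, 2 and 4 at its lower end and 3 well inside it.

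At 48 h without etomoxir the 7 libraries had 8.18, 4.88, 7.71, 2.65, 40.8, 23.96 and 13.88 FPKM, in the order of their labels. These values rest on 258 to 3492 counts, and all 7 lay above every library of the other 4 groups. With etomoxir at 48 h the 4 libraries had 0.769, 0.815, 1.88 and 1.89 FPKM, of which 1 and 2 were within the sham range and 3 and 4 just above it. The highest PHx48_ETO library, at 1.89 FPKM, was below the lowest PHx48 library, at 2.65 FPKM. The exact Poisson 95% interval, which covers counting error only, was 39.5 to 42.2 FPKM for PHx48 5 and 2.33 to 2.99 FPKM for PHx48 4. The spread among PHx48 libraries was therefore far wider than counting error.

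**Figure D1:**
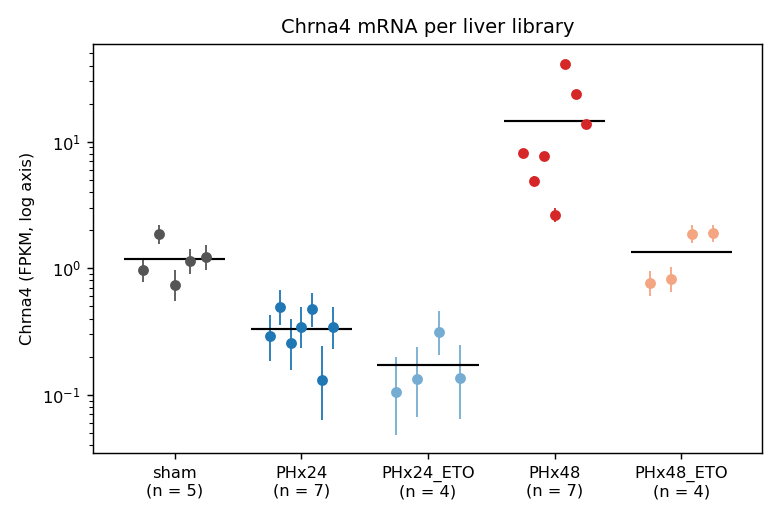
Chrna4 level (FPKM, log axis) in each of the 27 libraries, as points in label order with exact Poisson 95% intervals, and the group mean as a black line. The 7 PHx48 libraries, from 2.65 to 40.8 FPKM, lie above all others, and the PHx24 and PHx24_ETO libraries lie below all sham libraries.

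The mean of sham was 1.19 ± 0.422 FPKM (SD, n = 5). PHx24 had a mean of 0.333 ± 0.126 FPKM (n = 7) and PHx48 one of 14.58 ± 13.5 FPKM (n = 7). The means with etomoxir were 0.173 ± 0.0966 FPKM for PHx24_ETO and 1.338 ± 0.631 FPKM for PHx48_ETO (n = 4 each). From lowest to highest the order was PHx24_ETO, PHx24, sham, PHx48_ETO and PHx48. PHx24_ETO and PHx24 overlapped, as did sham and PHx48_ETO. PHx24 against sham, and PHx48_ETO against PHx48, did not overlap. The PHx48 mean was above that of 78.1% of the tested genes and the PHx24 mean above that of 1.1%. In bulk tissue, fewer cells carrying Chrna4 mRNA and less of it per cell cannot be told apart.

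The PHx24 mean was 3.57-fold lower than that of sham, with a fitted log2 fold change of -1.81 (SE 0.511). The PHx48 mean was 43.7-fold higher than that of PHx24, with a log2 fold change of 5.42 (SE 0.509), which was rank 2 from the top among the 12376 tested genes. PHx48 was 12.3-fold above sham (log2 3.62, SE 0.525). Etomoxir at 48 h went with a 10.9-fold lower mean (log2 -3.45, SE 0.569), rank 18 from the bottom of all tested genes. At 24 h the mean with etomoxir was 0.517 times that without, with a log2 fold change of -0.97 (SE 0.668) and overlapping libraries, and this was -0.87 without PHx24_ETO 2. Under etomoxir the mean was 7.76-fold higher at 48 h than at 24 h, with no overlap. These comparisons share libraries (PHx24 and PHx48 enter several of them) and are not independent. With the 4 libraries that held RNA of other tissues left out, the log2 fold change of PHx48 against PHx24 was 5.49 and that of PHx48_ETO against PHx48 was -3.55.

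Chrna4 also varied more among PHx48 libraries than nearly all genes. Its highest PHx48 library was 15.4 times its lowest, and the SD of log2(FPKM + 1) was 1.21, above that of 99.6% of tested genes and 99.5% of the 2971 genes of like mean level. The same SD was above that of 68.9% of tested genes in sham, 31.9% in PHx24, 17.9% in PHx24_ETO and 88.5% in PHx48_ETO. Among genes of like level the shares were 65.7%, 10%, 12.2% and 87.3%. The added 1 compresses this SD at low levels, and the coefficient of variation of FPKM was 35.5% in sham, 37.8% in PHx24, 56.0% in PHx24_ETO, 92.9% in PHx48 and 47.2% in PHx48_ETO. PHx48 libraries 5, 6 and 7 were the highest 3 and PHx48 4 the lowest. Neuronal markers did not follow this order. Their sum was 0.966, 1.01 and 1.0 FPKM in PHx48 5, 6 and 7, and 14.3 FPKM in PHx48 3, a library with skeletal muscle transcripts. By group the sum ran from 1.37 to 16.9 FPKM in sham, 1.08 to 1.38 in PHx24, 0.242 to 1.42 in PHx24_ETO, 0.966 to 14.3 in PHx48 and 1.14 to 1.36 in PHx48_ETO. Of the 12 neuronal markers, 8 stayed under 1 FPKM in every library and Nefl, a neurofilament gene, was at 0 counts in all.

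The mRNAs of the usual partner subunit and of most other nicotinic subunits were near the floor. Chrnb2 ranged from 0.0309 to 0.412 FPKM over all libraries and averaged 0.259 FPKM in sham, 0.178 in PHx24, 0.152 in PHx24_ETO, 0.138 in PHx48 and 0.0907 in PHx48_ETO. The PHx48 value stands beside 14.58 FPKM for Chrna4 in the same libraries. Of the 15 other nicotinic subunits in the table, 12 never exceeded 1 FPKM in any library, and Chrna6 and Chrnb3 were at 0 counts in all 27. Chrnb1, a muscle-type subunit, reached 1.84 FPKM in PHx24 1, and Chrne, the adult muscle epsilon subunit, reached 1.01 FPKM in sham 1. Of the 13 other subunits with any count, 11 had their highest value in 1 of the 4 libraries with transcripts of other tissues. Whether those tissues gave these counts was not tested.

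Chrna2, the alpha 2 subunit, was the only other nicotinic subunit that passed the filter, and its group means at 48 h ran the other way from those of Chrna4. It averaged 1.54 ± 0.417 FPKM in sham, 1.47 ± 0.561 in PHx24, 2.08 ± 0.555 in PHx24_ETO, 1.02 ± 0.412 in PHx48 and 2.43 ± 0.396 in PHx48_ETO. Its log2 difference of PHx48_ETO from PHx48 was 1.24 (SE 0.279), which missed the threshold in edgeR's quasi-likelihood test (adjusted p = 0.0589). It passed with DESeq2 (adjusted p = 0.00514), with limma on log2(FPKM + 1) (adjusted p = 0.0413) and without PHx48 2 (adjusted p = 0.0296). Across the 27 libraries its correlation with Chrna4 was -0.469.

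**Figure D2:**
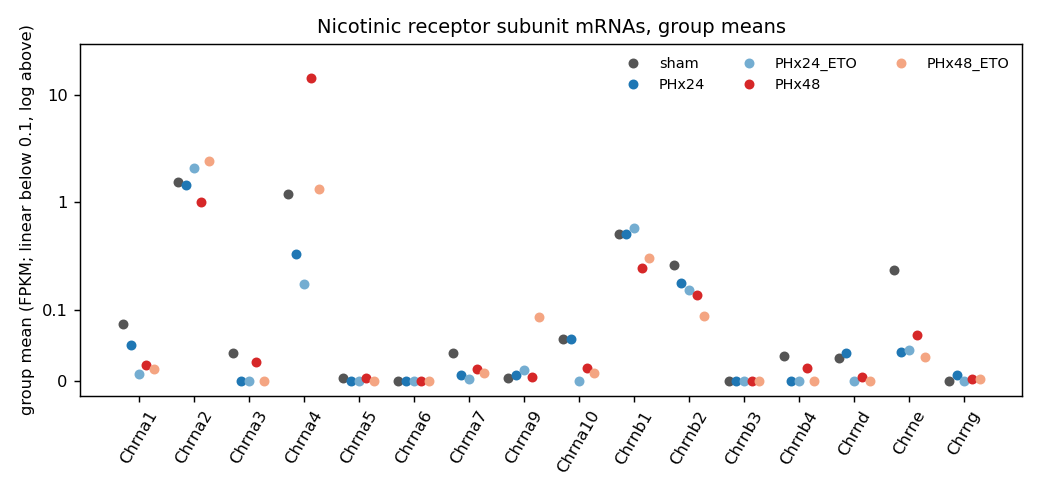
Group mean level (FPKM, linear below 0.1 and logarithmic above) of the 16 nicotinic receptor subunits, 1 point per group. Chrna4 reaches 14.58 FPKM in PHx48, Chrna2 lies between 1.02 and 2.43 FPKM in all groups, and most other subunits lie near 0.

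Other parts of acetylcholine signalling were also sparse. Chat, the vesicular acetylcholine transporter gene Slc18a3 and the choline transporter gene Slc5a7 had 0 counts in all 27 libraries. Ache stayed at or under 0.882 FPKM, while Bche ranged from 5.72 to 16.4 FPKM. None of the 5 muscarinic receptors passed the filter. Chrm1, the M1 receptor, had 0 to 30 counts and reached 0.275 FPKM in PHx48 6. It averaged 0.0759 FPKM in sham, 0.0344 in PHx24, 0.0119 in PHx24_ETO, 0.172 in PHx48 and 0.0641 in PHx48_ETO. Chrm2, Chrm3, Chrm4 and Chrm5 stayed at or under 0.213 FPKM. None of the 25 other Cys-loop receptor genes (GABA-A, glycine and 5-HT3 receptor subunits and relatives) passed the filter. The highest of them reached 0.894 FPKM.

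Of 48 other genes of nicotinic and muscarinic receptors, acetylcholine handling and receptor assembly, 10 were tested with edgeR. From sham to PHx24, 2 rose and 1 fell (35.0% of all tested genes were called in that comparison, 19.1% higher and 15.8% lower). Ywhah, a 14-3-3 protein that binds the alpha 4 subunit, rose by a log2 fold change of 0.81 (adjusted p = 3.59e-06), and Creld2, an endoplasmic reticulum protein that binds nicotinic subunits, rose by 1.19 (adjusted p = 0.00128). Slc44a1, a choline transporter, fell by 0.70 (adjusted p = 0.00422). From PHx24 to PHx48, 3 of 10 rose and 1 fell (11.6% of all tested genes called, 6.19% higher and 5.41% lower). Those that rose were Ywhah, Slc44a1 and Chka, which encodes choline kinase and rose by 0.91 (adjusted p = 0.0146). Slc44a1 rose by 0.60 (adjusted p = 0.0224) and missed the threshold with no filter (adjusted p = 0.0527) and without PHx24 3, PHx24 4, PHx24 5 or PHx48 5 (adjusted p from 0.0514 to 0.0528). Ubxn2a, a factor in receptor trafficking, fell by 0.44 (adjusted p = 0.00624), which did not pass with limma on log2(TPM + 1) (adjusted p = 0.158). PHx48 against sham gave 2 higher and 2 lower (36.5% called, 19.5% higher and 17.0% lower). Ywhah was higher by 1.46 (adjusted p = 4.57e-10) and Chka by 0.94 (adjusted p = 0.00749). Agrn, encoding agrin, which clusters receptors at the muscle synapse, was lower by a log2 fold change of -0.47 (adjusted p = 0.0153), and Ubxn2a by -0.35 (adjusted p = 0.0194), a difference that was 0.0197 on the log2(TPM + 1) scale. On that scale Agrn differed by -0.08 (limma adjusted p = 0.731). Agrn missed the threshold without sham 3 (adjusted p = 0.057) and Ubxn2a without sham 1 (adjusted p = 0.0607). Without the 4 libraries named above, 1 of 10 was called in PHx48 against sham and 2 of 10 in PHx48 against PHx24. Chka then missed the threshold in both (adjusted p = 0.0678 against sham and 0.0607 against PHx24). Agrn (adjusted p = 0.145) and Ubxn2a (adjusted p = 0.0696) missed it against sham, and Slc44a1 against PHx24 (adjusted p = 0.057). The share of all tested genes called in that smaller fit is not given here. Why these counts were lower was not tested, and they are not read as particular to this list.

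Etomoxir at 24 h raised Creld2 by 1.11 (adjusted p = 0.0265) and lowered Ywhah by a log2 fold change of -0.43 (adjusted p = 0.0399), 2 of 10 genes where 2.9% of all tested genes were called, 1.58% higher and 1.33% lower. No gene of the 10 was called without PHx24 3, PHx24 4, PHx24_ETO 3 or PHx24_ETO 4, each left out alone, and 1 was called without PHx24 5, PHx24 6, PHx24 7 or PHx24_ETO 2. With etomoxir at 48 h, edgeR called 0 of the 10 (0.21% of all tested genes were called, 0.129% higher and 0.0808% lower). There 1 of the 10 had an unadjusted p under 0.05, and DESeq2 and limma on log2(FPKM + 1) each called 1. The median log2 fold change of the 10 was -0.112, against -0.0115 over all tested genes.

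Likeness to Chrna4 was measured as Pearson's r of log2(FPKM + 1) over the 27 libraries, which share groups and times. It is a description with no p. Over the 12375 other tested genes the median r was -0.0138 and the middle 90% lay between -0.443 and 0.513. Acly was first with an r of 0.966 and a Spearman's rho of 0.899. H2-Q6, a class I histocompatibility gene, followed at 0.909 and the next gene at 0.863, and 22 genes in all exceeded 0.8. Without PHx48 5 and PHx48 6, the libraries farthest from the median, the r of Acly was 0.934. It was 0.966 without the 4 libraries carrying other tissues' RNA and 0.967 without the etomoxir groups. Within PHx48 alone it was 0.976 (n = 7), within PHx24 alone 0.690 (n = 7), and for deviations from the group means over all 27 libraries 0.882, again the highest of all genes.

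Acly had 46.6, 42.7, 26.2, 51.0 and 59.1 FPKM in sham libraries 1 to 5, and ran from 24.99 to 38.5 in PHx24, with a median of 27.8. PHx24_ETO 1 to 4 had 27.6, 30.8, 32.5 and 27.1 FPKM. In PHx48 the values were 79.5, 67.7, 93.0, 55.4, 287.7, 152.1 and 112.9 FPKM, in label order, and in PHx48_ETO 42.5, 29.1, 48.3 and 41.7 FPKM. PHx48 5, 6 and 7 were the highest 3 libraries for both genes and PHx48 4 the lowest of PHx48 for both. The range differed. Acly spanned 11.5-fold over all libraries and Chrna4 387-fold, with a slope of 2.51 of log2 Chrna4 on log2 Acly (r = 0.931). With etomoxir at 24 h the Acly mean was 29.5 FPKM, against 29.9 FPKM without. The Chrna4 mean there was 0.173 FPKM, against 0.333 FPKM without, with overlapping libraries.

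**Figure D3:**
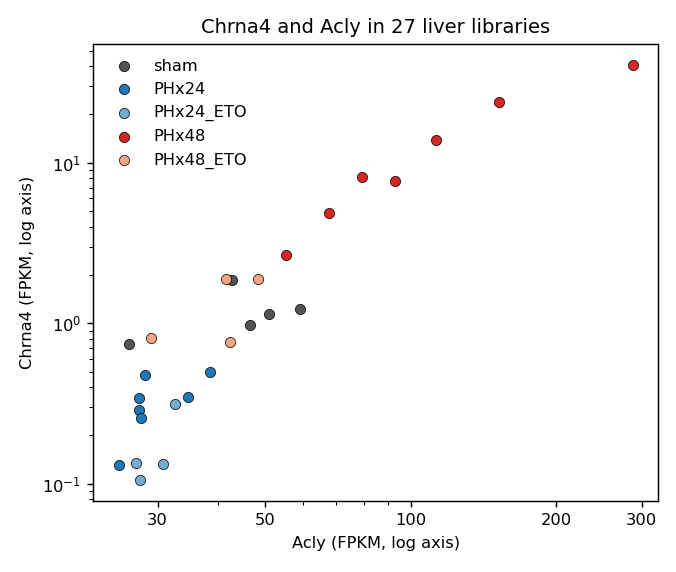
Chrna4 against Acly (both FPKM, log axes) in the 27 libraries, coloured by group. The libraries lie along 1 band with a slope of 2.51 and an r of 0.931 on log2 scales. PHx24 and PHx24_ETO lie at the lower left and PHx48 5, at 287.7 FPKM of Acly and 40.8 of Chrna4, at the upper right.

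The other 8 genes with the highest r were Gm37736 (0.863), Adam11 (0.846), Cc2d2a (0.841), Fads1 (0.840), Cep70 (0.835), H2-Q5 (0.834), Fasn (0.831) and Pnpla3 (0.831). Fasn encodes fatty acid synthase, Fads1 the delta-5 fatty acid desaturase and Pnpla3 a lipid droplet protein with acyltransferase and lipase activity. Adam11 encodes a catalytically inactive ADAM-family membrane protein, and Cc2d2a and Cep70 encode proteins of the ciliary base and the centrosome. Gm37736 is a short unconfirmed model within Tcf7l1 with a mean of 1.06 FPKM in PHx48, and reads of the 2 cannot be told apart without strand. H2-Q5 and H2-Q6 are near copies of other class I genes, so their values are uncertain. H2-Q6 averaged 15.2 ± 2.42 FPKM in sham, 12.6 ± 3.63 in PHx24, 9.45 ± 2.35 in PHx24_ETO, 36.3 ± 12.8 in PHx48 and 20.5 ± 4.05 in PHx48_ETO. Fads1 averaged 115.2 ± 4.91, 84.7 ± 12.2, 77.1 ± 11.1, 153.0 ± 19.5 and 115.4 ± 13.5 FPKM in the same order.

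The ranking changed with the measure and the libraries used. Acly itself ranked 3 within PHx48 alone and 885 within PHx24 alone, where Pstpip2 and Fyn, respectively, were first. Of the 10 genes, 6 stayed among the 10 highest without the 4 libraries carrying other tissues' RNA, 5 without PHx48 5 and 6, 3 by Spearman's rho and 1, Acly, by deviations from the group means. Within PHx24 alone, where Chrna4 rested on 10 to 42 counts, the r of H2-Q6 was -0.140, of Adam11 -0.691, of Cc2d2a -0.628 and of Cep70 -0.936. At the other end, the lowest r belonged to Mindy1 (-0.793), a deubiquitinase gene, Arhgef3 (-0.744), Chp1 (-0.739), Pla2g12a (-0.736) and Mgll (-0.731), which encodes monoglyceride lipase. Mindy1 averaged 18.96 ± 1.27 FPKM in PHx24, 20.3 ± 2.38 in PHx24_ETO, 13.2 ± 1.04 in PHx48 and 15.2 ± 1.27 in PHx48_ETO.

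**Figure D4:**
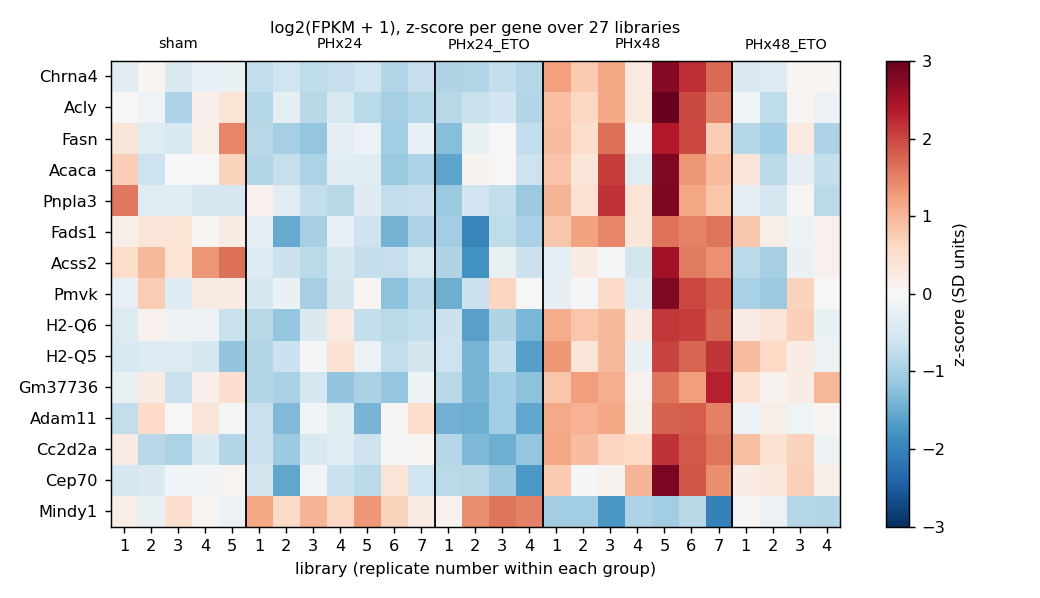
Level of Chrna4, of the 10 genes most like it, of Acaca, Acss2 and Pmvk, and of Mindy1, as log2(FPKM + 1) scaled to a z-score per gene over the 27 libraries (columns, by group and replicate number). PHx48 5, 6 and 7 are the highest libraries for Chrna4 and Acly, and Mindy1 is lowest in PHx48.

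Within PHx48, libraries that held more Chrna4 mRNA also held more mRNA of several acetyl-CoA and sterol synthesis enzymes. Deviations from the group means rest mainly on PHx48, where the SD of log2(FPKM + 1) of Chrna4 was 1.21, against 0.115 to 0.397 in the other groups. Within PHx24 alone the r was 0.904 for Pmvk and 0.430 for Acacb, but 0.0408 for Acss2 and -0.0661 for Aldh1l1. For deviations from the group means, the highest r after Acly belonged to Pmvk (0.848), which encodes phosphomevalonate kinase, and Acss2 (0.837), which makes acetyl-CoA from acetate. Scpep1 (0.760), Gm3571 (0.755, a processed pseudogene whose reads may come from its parent gene), Acacb (0.755, acetyl-CoA carboxylase 2), Acat2 (0.751), Dhcr7 (0.751) and Aldh1l1 (0.750) were also among the highest. Acss2 had 8.12, 11.7, 9.69, 6.73, 52.1, 28.1 and 24.97 FPKM in PHx48 in label order, again with libraries 5, 6 and 7 on top and library 4 lowest. Pmvk had 23.6, 26.2, 34.4, 22.3, 89.9, 64.4 and 59.3 FPKM, with the same top 3 and the same lowest library. Acss2 averaged 20.15 FPKM in sham and 20.21 FPKM in PHx48. Its likeness for deviations from the group means thus did not extend to the difference between sham and PHx48.

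By gene list, fatty acid synthesis held the largest share of the 100 genes most like Chrna4 among the lists examined. The list was brought in because 5 of its genes were in that 100, so its share followed from the choice. It is given as a description only. Its 15 tested genes had a median r of 0.639 with Chrna4, and 0.541 for deviations from group means. Of them, 5 (Acly, Fasn, Pnpla3, Acaca and Gpam) were among the 100 genes most like Chrna4, which is 33.3% of the list where 0.808% of all tested genes are in that 100. Dgat2, which makes triglyceride, was lowest of this list at -0.159. The mitosis list had 2 of 20 genes in that 100 (10%) and the cholesterol synthesis list 1 of 18 (5.56%). The 18 cholesterol synthesis genes had a median r of 0.28 over all libraries and 0.622 for deviations from group means. Among them Sc5d, a sterol desaturase, was highest (0.788) and Idi1, an isoprenoid isomerase, lowest (-0.119). The 20 mitosis genes had a median r of 0.641 but 0.251 for deviations, with Cenpa, a centromere histone, highest (0.744) and Top2a lowest (0.459). The 33 targets of PPARA, the nuclear receptor of fatty acid use, had a median of -0.238, from -0.676 for Retsat (retinol saturase) to 0.521 for Mogat1. The 20 mitochondrial fatty acid oxidation genes had -0.239, from -0.708 for the carnitine transporter gene Slc22a5 to 0.460 for Echs1.

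**Figure D5:**
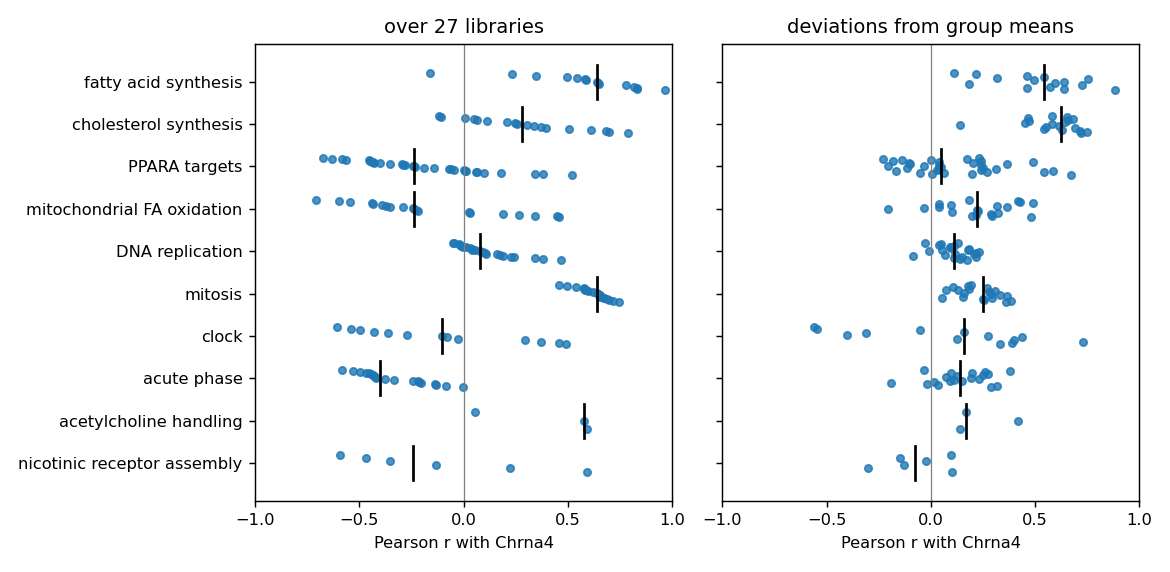
Pearson's r with Chrna4 of each tested gene (points) in 10 gene lists, with the list median as a bar, over the 27 libraries on the left and for deviations from the group means on the right. Cholesterol synthesis has a median of 0.28 on the left and 0.622 on the right, and mitosis 0.641 and 0.251.

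The fatty acid synthesis list, which was brought in because 5 of its genes were among the 100 most like Chrna4 and so is not independent of it, was also read in the fit over all genes. From sham to PHx24, 8 of 15 genes fell (15.8% of all tested genes were called lower), with a median log2 fold change of -0.683 against 0.00817 over all genes. Dgat2 fell by 0.74 (adjusted p = 0.000123), Scd1, stearoyl-CoA desaturase, by 1.99 (adjusted p = 0.000383) and Me1, malic enzyme, by 0.68 (adjusted p = 0.00172). The count was 5 of 15 without sham 5. From PHx24 to PHx48, 8 of 15 rose (6.19% of all genes called higher). Acly rose by a log2 fold change of 2.01 (adjusted p = 1.04e-05), Fasn by 1.56 (adjusted p = 0.000415), Acaca, acetyl-CoA carboxylase 1, by 0.68 (adjusted p = 0.000708) and Pnpla3 by 3.11 (adjusted p = 0.00125). PHx48 against sham gave 6 higher and 2 lower of 15 (19.5% and 17.0% of all tested genes), with a median log2 fold change of 0.194. There Acly differed by 1.44 (adjusted p = 0.000308), but Dgat2 by -0.88 (adjusted p = 1.29e-05) and Mlxipl by -0.69 (adjusted p = 0.0164).

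With etomoxir at 48 h, 3 of the 15 genes fell (0.0808% of all tested genes, 10 genes, were called lower), with a median log2 fold change of -0.675 against -0.0115 over all genes. Acacb fell by 1.76 (adjusted p = 0.0237), Acly by 1.58 (adjusted p = 0.0302) and Scd1 by 2.37 (adjusted p = 0.0302). Acly and Acacb were also named for their likeness to Chrna4 over these same libraries, so their falls are not independent of that of Chrna4. Their group means went from 9.76 to 2.87 FPKM for Acacb, from 121.2 to 40.4 for Acly and from 754.3 to 145.8 for Scd1. These calls rest on few libraries, since none of the 15 was called without PHx48 7, PHx48_ETO 1, PHx48_ETO 2 or PHx48_ETO 3, each left out alone, 1 without PHx48 6 and 5 without PHx48 4. Acly was also not called without PHx48_ETO 4, nor Scd1 without PHx48 1, PHx48 3 or PHx48 5. With etomoxir at 24 h, Srebf1, a master regulator of these enzymes, fell by 1.44 (adjusted p = 0.0208) as the only call of the 15 (2.9% of all genes called), and this was lost without PHx24_ETO 2, 3 or 4.

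Of the 18 cholesterol synthesis genes, 7 were called higher and 11 were not called, both from PHx24 to PHx48 and under etomoxir at 24 h. Under etomoxir at 48 h 0 of 18 were called (0.21% of all tested genes), with a median log2 fold change of -0.158. PHx24 against sham gave 1 higher and 3 lower (19.1% and 15.8% of all tested genes). PHx48 against sham gave 3 higher and 1 lower (19.5% and 17.0%). From PHx24 to PHx48, 7 of 18 rose (6.19% of all genes called higher), among them Sc5d by 1.60 (adjusted p = 7.19e-05) and Dhcr7 by 0.92 (adjusted p = 0.00207). With etomoxir at 24 h, 7 of 18 rose (1.58% of all genes called higher), with a median log2 fold change of 1.08. Srebf2, the regulator of the pathway, rose by 0.66 (adjusted p = 0.00741). In the same comparison Chrna4 had a log2 fold change of -0.97 with overlapping libraries. The count of 7 depended on the libraries: it was 14 without PHx24_ETO 1, 1 without PHx24_ETO 3, and 4 without PHx24_ETO 2 or PHx24 3, 4, 6 or 7.

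The tested genes around Chrna4 did not follow it closely over the 27 libraries. Col20a1, a collagen gene on the opposite strand, ends 17 bases beyond the end of Chrna4 without overlapping it. It averaged 0.511 FPKM in sham, 0.347 in PHx24, 0.196 in PHx24_ETO, 0.269 in PHx48 and 0.0686 in PHx48_ETO and did not pass the filter. As for Chrna4, the Col20a1 mean was lower in PHx24 than in sham and lower with etomoxir at each time. Unlike that of Chrna4, it was lower in PHx48 than in sham. Of the 8 other genes within 100 kb, 4 were tested, and their r with Chrna4 was 0.325 for Arfgap1, 0.0955 for Nkain4, 0.0119 for Ythdf1 and 0.0045 for 9230112E08Rik. Nkain4 averaged 1.06 FPKM in sham, 0.522 in PHx24, 0.296 in PHx24_ETO, 0.611 in PHx48 and 0.474 in PHx48_ETO. It was called in none of the comparisons. Arfgap1, an activator of the ARF1 GTPase, was higher in PHx48 than in sham by 0.56 (adjusted p = 8.96e-05) and than in PHx24 by 0.31 (adjusted p = 0.0251). 9230112E08Rik, a noncoding transcript, fell by 0.73 from sham to PHx24 (adjusted p = 0.0179). For PHx48_ETO against PHx48 their log2 differences lay between -0.57 and 0.08, with adjusted p from 0.6 to 0.914 (edgeR). Birc7 was near or at 0.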

How the data were processed

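Polyadenylated liver RNA was sequenced after TRIzol extraction and library making with the NEBNext Ultra kit, which does not mark strand, per the labels' protocols. The tools listed in the submitters' processing notes are featureCounts 1.5.0-p3, HISAT2 2.0.5, fastp, CASAVA 1.8 and DESeq2 1.20.0, and the builds are mm10 and GRCm38. What each tool did is not given in the sources used here. A table deposited by the authors holds a raw read count and an FPKM per gene and library. Tested on the table, the authors' FPKM equalled the count over gene length and a library size of 12965192 to 20459716 counts (relative spread at most 5.5e-08), which differed from the count total. Of the gene IDs, 54409 were in GENCODE M21.

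Genes with at least 1 FPKM in at least 4 libraries (12376) were tested on raw counts in R 4.3.3 by the quasi-likelihood test of edgeR 4.0.16 with TMM factors. A single fit took all 27 libraries and 5 groups, p-values were adjusted by Benjamini and Hochberg over all tested genes, and 0.05 was the threshold for a call. This test gave each adjusted p printed without another tool's name. The common biological coefficient of variation was 0.266, so spread between libraries, more than depth, limited genes with many counts. Chrna4 in PHx24 and PHx24_ETO, at 9 to 42 counts, was limited by depth too. Correlations used log2(FPKM + 1) in Python 3.11.15 with numpy 2.4.6, and fold changes given as ratios are ratios of mean FPKM. Alternatives were RLE factors, DESeq2 1.42.0, limma 3.58.1 on log2(FPKM + 1), log2(FPKM + 0.1) and log2(TPM + 1), no filter, the replicate number as a block, each library left out, and, chosen after seeing the data, 4 libraries with transcripts of other tissues left out. The median log2 fold change over all tested genes was higher on log2(TPM + 1) than on log2(FPKM + 1). This shift between the scales was 0.19 for PHx24 against sham and 0.323 for PHx48 against sham.

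Chrna4 and the gene lists were chosen with earlier results of these data known. Named genes were the nicotinic subunits, the 10 highest and 5 lowest by r, the 10 highest by r of deviations from group means, tested genes within 100 kb, called cholinergic genes, and of each other list the highest and lowest by r and up to 3 with the smallest p. Single subunits, receptors and markers outside this rule were named after their values were seen. Of the 10 genes with the highest r, 6 had an entry in the RefSeq promoter table. Acly, Acss2, Cep70, Fads1, Mindy1, Mgll, Arhgef3, Aldh1l1, Scpep1, Chka, Slc44a1, Acaca, Acacb, Pnpla3, Srebf1, Srebf2, Me1, 9230112E08Rik and Nkain4 each overlap another annotated gene and may share reads with it. Some genes that this rule names are not reported here. No library was a copy of another (highest correlation within a group 0.9875).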

Additional observations from a re-analysis of the deposited data

Results flagged for a closer look

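In 6 of 55 groups of 4 to 7 libraries checked, 1 library stood apart from the rest of its group by Dixon's 95% criterion. Chance alone flags about 1 in 20 groups where values are normally distributed and groups independent. The genes checked share libraries and include genes picked for likeness to Chrna4, so that rate is only a rough guide. Chrna4 in PHx24_ETO was highest in library 3, at 0.316 FPKM, with the next at 0.135 FPKM. Acly in PHx48 was highest in library 5, at 287.7 FPKM, with the next at 152.1 FPKM. H2-Q6 in PHx24 reached 20.26 FPKM in library 4, with the next at 13.68 FPKM. H2-Q5 in sham was lowest in library 5, at 1.77 FPKM, with the next at 2.62 FPKM. Fasn in PHx48_ETO was highest in library 3, at 39.7 FPKM, with the next at 21.0 FPKM. Pnpla3 in sham was 5.65 FPKM in library 1, which held skeletal muscle transcripts, with the next at 0.758 FPKM, and without the 4 libraries carrying other tissues' RNA its r with Chrna4 was 0.941.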

How the results depend on the processing

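Chrna4 kept its direction in all 5 comparisons under every alternative run. Its log2 fold change shrank with limma on log2(FPKM + 1), where the added 1 compresses low levels, to -0.70 (PHx24 against sham), 2.41 (PHx48 against sham), 3.11 (PHx48 against PHx24), -0.18 (etomoxir at 24 h) and -2.34 (etomoxir at 48 h), and with log2(TPM + 1) to -0.91 for PHx24 against sham and 3.97 for PHx48 against PHx24. With 1 library left out at a time it ran from -1.96 to -1.57, 3.11 to 3.85, 4.91 to 5.60, -1.44 to -0.79 and -3.67 to -2.94 in the order above.

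Counts of calls under etomoxir moved more than those of resection, which with 1 library left out ran from 3853 to 4291 (PHx24 against sham), 4101 to 4415 (PHx48 against sham) and 1134 to 1443 (PHx48 against PHx24). The cause was not tested. At 24 h, 359 genes were called by edgeR, 764 by DESeq2, 196 with no filter and 138 to 1199 with 1 library left out (181 without PHx24 3, 167 without PHx24 4, 1199, 138 and 141 without PHx24_ETO 1, 2 and 3). At 48 h, 26 were called, 68 by DESeq2, 11 with no filter and 1 to 25 with 1 library left out (7 without PHx48 7, 3 and 1 without PHx48_ETO 1 and 3, 12 to 16 without PHx48 1, 3, 5 or 6 or PHx48_ETO 2 or 4). Fatty acid synthesis genes called at 48 h numbered 6 with DESeq2, 5 on the TPM scale and 0 to 5 with 1 library left out, at 24 h 0 to 1 with 1 left out, and from sham to PHx24 5 to 9. Cholesterol synthesis genes called at 24 h of etomoxir numbered 12 with DESeq2, 4 with no filter and 1 to 14 with 1 left out. Cholinergic genes called were 5 with no filter for PHx24 against sham, 1 and 2 without the 4 libraries for PHx48 against sham and PHx24, 1 on the TPM scale and with no filter and 0 to 2 with 1 left out for etomoxir at 24 h, and 1 with DESeq2 and limma and 0 to 1 with 1 left out at 48 h. Ubxn2a changed sign on the TPM scale for PHx48 against sham (0.0197, limma adjusted p = 0.918). Within PHx24 the r with Chrna4 changed sign for H2-Q6 (-0.140), Adam11 (-0.691), Cc2d2a (-0.628) and Cep70 (-0.936).

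Libraries with the same replicate number did not deviate together: over 45 such pairs the median correlation was 0.0202 (from -0.232 to 0.655), against -0.0096 for other pairs, and 5 of 27 libraries correlated best with their own number. With the replicate number as a block, Chrna4 had log2 fold changes of -1.99, 3.11, 5.10, -0.58 and -2.73 in the order above. The block gave 44 calls at 48 h of etomoxir, with 1 in fatty acid synthesis, and at 24 h 1 cholinergic call and 0 in fatty acid synthesis.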

Other observations

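Leaving Chrna4 aside, 6 genes beside Scd1, Acacb and Acly were called lower with etomoxir at 48 h (edgeR's quasi-likelihood test). Chrna4 was in the same fit, and the shares of all tested genes called count every gene of that fit. Its values chose it, so no test result of its own is given. Ass1, a urea cycle enzyme, had a log2 fold change of -1.16 (adjusted p = 0.0154) and means of 1251 FPKM in PHx48 and 557.2 FPKM in PHx48_ETO. Gnmt, glycine N-methyltransferase, had -0.86 (adjusted p = 0.039). Il11ra1, an interleukin 11 receptor gene, had -0.63 (adjusted p = 0.039) and an r with Chrna4 of 0.749, the highest of these 6. The others were Mfsd13a, Naglu and Gm5424, whose reads may be shared with its parent gene Ass1. These genes come from the comparison that helped to choose Chrna4 and share its libraries, and with 1 library left out the count of genes called in either direction fell to between 1 and 25.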
